A study of Rattus norvegicus with 4 samples.

Results

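A set of 9 genes characteristic of hepatocyte function was followed in rat liver after α-naphthylisothiocyanate (ANIT), a chemical known for damaging the cells that line bile ducts. They are Ttr, Igf1, Ang and Vtn, whose products are secreted, Fcgrt, a membrane receptor, Car3, a cytosolic enzyme, Uox and Agxt, peroxisomal enzymes, and Tst, a mitochondrial enzyme. Members were the spots whose single gene symbol in the platform annotation was one of these names, which gave 13 spots of 9 genes, out of 1432 spots of 958 named genes. The genes were chosen from their function and with their mean ratios already known. These ratios are therefore given here as a description and support nothing. The word abundant in the name of the group could not be checked, since the values are ratios and hold no brightness.

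Male Sprague-Dawley rats of 250 to 300 g were given 75 mg/kg ANIT in olive oil, or the same volume of olive oil alone, by intraperitoneal injection, and liver was taken at 12 h. Liver RNA of 3 rats per treatment was mixed, so the pools carry no spread between animals, and both pools were hybridised together on each of 4 spotted cDNA arrays. Dyes were swapped between arrays: ANIT RNA was labelled with Cy5 for arrays 1 and 3, and with Cy3 for arrays 2 and 4. The labels name no other treatment and no deletion or transgene in either group. In a piece of whole liver, fewer cells of a type and less RNA per cell cannot be told apart.

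Hepatocytes make most plasma proteins and hold the enzymes that clear nitrogen, purine and sulfur waste. Secreted proteins enter the endoplasmic reticulum and leave the cell through the Golgi, whereas cytosolic, peroxisomal and mitochondrial enzymes are made on free ribosomes and stay inside. Several plasma proteins of hepatocytes, among them transthyretin, are known to fall in plasma during inflammation, and liver output of insulin-like growth factor 1 is driven by growth hormone. These points are background and were not measured here.

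Each value is the log ratio of the 2 channels of an array, minus the median of that array's 1648 gene spots (a centred log ratio, in log units). Neither the logarithm's base nor which channel is the numerator is known from the sources used here. A value of 0 is the median gene spot, and a positive value does not say which treatment was higher. From the 4 values of a gene come its mean ratio and its dye contrast. The dye contrast is the same mean, taken after the sign of the 2 arrays with ANIT in Cy3 is turned. If all arrays hold the same treatment over the other, the mean ratio compares the treatments and the dye contrast is a dye effect. If Cy5 over Cy3, or Cy3 over Cy5, is held on every array, it is the dye contrast that compares the treatments. The mean ratio is then a dye effect, and a difference between the treatments cancels in it. Arrays of opposite dye orientation correlated at r between -0.91 and -0.88 over gene spots (spots are no independent replicates), and no source says which of these readings holds. Both quantities are therefore given for each gene. Nothing in the labels tells of more than 1 RNA pool per treatment, so the errors and p-values cover differences between hybridisations, not between animals, and having 4 arrays limits the precision.

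RefSeq start regions of the GRCr8 assembly were read for the members, since Ang and Uox lay on opposite sides of 0 in mean ratio. Of the 9 members, 7 had an entry, with 9 start regions in all, and Car3 and Tst had none. The 250 bases before each start were searched on both strands for the TATA box (TATAAA), the CCAAT box (its name gives its letters), the core of FOXA sites (TGTTTAC), a variant of that core (TGTTTGC), the HNF1 motif (GTTAAT) and a C/EBP-like motif (TTGCNNAA). Sequences are printed 5′ to 3′ on the gene's strand, with matches in capitals. The 2 starts of Ang lie on the + strand at chr15:26785983-26786232 (start A) and chr15:26790990-26791239 (start B), and that of Uox on the + strand at chr2:238146880-238147129.
Ang start A: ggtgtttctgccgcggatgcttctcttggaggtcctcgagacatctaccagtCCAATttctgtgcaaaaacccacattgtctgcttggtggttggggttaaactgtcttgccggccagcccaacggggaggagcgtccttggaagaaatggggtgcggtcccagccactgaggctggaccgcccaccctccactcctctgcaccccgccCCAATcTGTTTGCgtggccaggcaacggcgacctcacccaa
Ang start B: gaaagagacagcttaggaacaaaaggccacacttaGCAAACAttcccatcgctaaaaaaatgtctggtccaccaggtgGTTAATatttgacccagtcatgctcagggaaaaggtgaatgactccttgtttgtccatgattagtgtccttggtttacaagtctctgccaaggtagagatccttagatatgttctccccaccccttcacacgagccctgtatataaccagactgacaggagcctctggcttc
Uox: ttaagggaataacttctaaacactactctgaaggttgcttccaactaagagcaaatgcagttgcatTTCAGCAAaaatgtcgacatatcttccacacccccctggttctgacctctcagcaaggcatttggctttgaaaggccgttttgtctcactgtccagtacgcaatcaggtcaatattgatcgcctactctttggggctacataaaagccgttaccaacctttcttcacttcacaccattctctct
Ang start A held the CCAAT box at 2 places and the FOXA variant at 1, and start B held the FOXA variant on the other strand and the HNF1 motif. No match overlapped another. The Uox region held the C/EBP-like motif on the other strand and none of the other motifs. Among all 33469 start regions in the table, 4.16% held the FOXA variant, 34.0% the CCAAT box, 6.45% the HNF1 motif and 9.22% the C/EBP-like motif. Of the 2 starts of Agxt, 1 also held the CCAAT box, and 0 of the 9 member regions held the TATA box or the FOXA core, which were present in 12.9% and 3.21% of all regions. The regions of Ttr, Igf1, Vtn and Fcgrt held none of the 6 motifs. These matches describe letters. The regions of Ang and Uox were picked for printing with their mean ratios known, and they held matches. The region of Ttr, level with Ang at 0.23 in mean ratio, held none and was not printed. The printed regions therefore do not stand for all members, and whether a match goes with a value was not tested.

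Among the secreted products, transthyretin (Ttr), which carries thyroxine and the retinol-binding protein in plasma, stood at 0.63 and 0.58 on arrays 1 and 3 and at -0.22 and -0.079 on arrays 2 and 4. Both arrays with ANIT in Cy5 were high and both with ANIT in Cy3 were low, without overlap. The mean ratio of Ttr was 0.23 ± 0.043 log units (limma SE, n = 4 arrays) and its dye contrast 0.37 ± 0.043, the lowest dye contrast of the 9 genes. Each SE of a single gene given here is this limma SE. For it, eBayes draws the spread of a gene toward that of all features, so it is not the spread of that gene alone.

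Angiogenin (Ang), a secreted ribonuclease that belongs to a family of closely related genes, stood at 0.86 and 0.96 on arrays 1 and 3 and at -0.49 and -0.43 on arrays 2 and 4. The orientations did not overlap. Its mean ratio was 0.23 ± 0.042, on the side of Ttr, and its dye contrast was 0.68 ± 0.042, rank 7 from the top among 1174 features. It was measured by 2 spots. The spots had mean ratios of 0.28 and 0.18, so they lay on the same side but differed by 0.10. Whether the spots tell angiogenin from its relatives was not tested.

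Insulin-like growth factor 1 (Igf1), the main growth factor that liver releases, stood at 0.36 and 0.32 on arrays 1 and 3 and at -0.69 and -0.59 on arrays 2 and 4. Here the arrays with ANIT in Cy3 lay farther from 0 than the others, the reverse of Ttr and Ang. Igf1 had a mean ratio of -0.15 ± 0.041 and a dye contrast of 0.49 ± 0.041.

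Vitronectin (Vtn), a plasma glycoprotein that binds integrins and stabilises the plasminogen activator inhibitor, stood at 0.49 and 0.42 on arrays 1 and 3 and at -0.69 and -0.74 on arrays 2 and 4. Its mean ratio was -0.13 ± 0.040 and its dye contrast 0.58 ± 0.040. Its 2 spots had mean ratios of -0.15 and -0.11. The secreted members were thus split, with Ttr and Ang above and Igf1 and Vtn below the median gene spot.

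**Figure D1:**
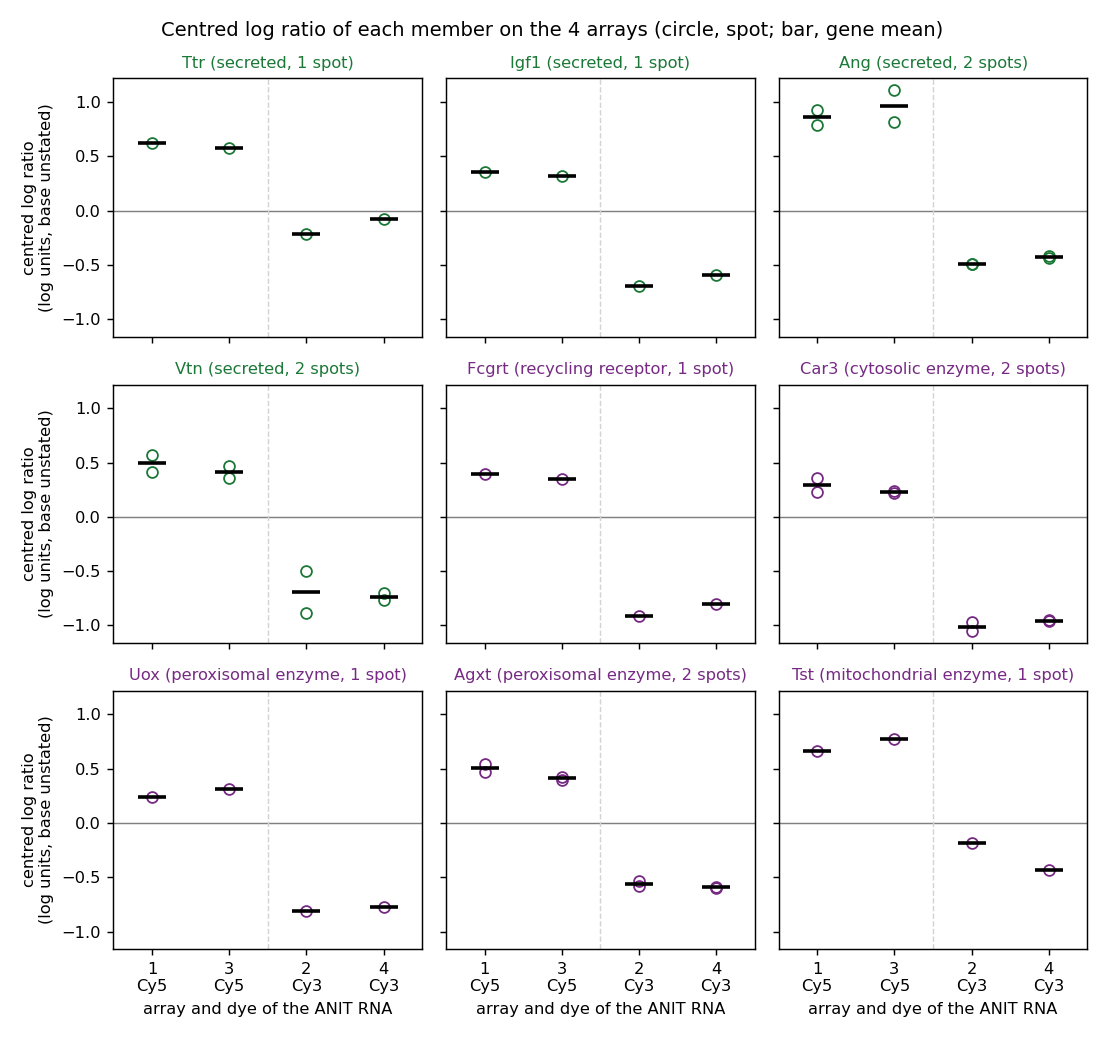
Centred log ratio (log units, base unstated) of each of the 9 genes on each array, with arrays 1 and 3 (ANIT in Cy5) left of the dashed line and arrays 2 and 4 (ANIT in Cy3) right of it; circles are spots and bars the gene mean, with secreted products in green and the others in purple. All 9 genes are above 0 on arrays 1 and 3 and below 0 on arrays 2 and 4, and Ttr, Ang and Tst sit higher than Car3 on each side of the line.

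The neonatal Fc receptor (Fcgrt), which pairs with β2-microglobulin and returns IgG and albumin from endosomes to the blood, stood at 0.40 and 0.35 on arrays 1 and 3 and at -0.92 and -0.80 on arrays 2 and 4. This gave a mean ratio of -0.24 ± 0.042 and a dye contrast of 0.62 ± 0.042. Of the genes listed as its partners and the other Fc receptors, 4 more were measured and 0 of them passed the threshold in mean ratio, which was an adjusted p of 0.05 in limma over 1174 features. At this threshold 46 of the 1174 features (3.92%) passed, and at an unadjusted p under 0.05, 198 did. B2m, which encodes β2-microglobulin, stood at 0.079 ± 0.049 in mean ratio (limma, adjusted p = 0.45) and -0.56 ± 0.049 in dye contrast. Both values lay on the opposite side from Fcgrt. With values as deposited the mean ratio of B2m was -0.14, on the same side as Fcgrt at -0.46.

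Carbonic anhydrase 3 (Car3), a cytosolic enzyme that is abundant in the liver of male rats, stood at 0.30 and 0.23 on arrays 1 and 3 and at -1.01 and -0.96 on arrays 2 and 4. It had the lowest mean ratio of the 9 genes, -0.36 ± 0.040, which was rank 1167 of 1174 features, and a dye contrast of 0.62 ± 0.040. Its 2 spots, in different print blocks, had mean ratios of -0.36 each and differed by 0.0085. The mean ratio of Car3 would be a fold of 1.28 for a base-2 logarithm, of 1.43 for a natural one and of 2.29 for base 10. The other carbonic anhydrases on the array, Car1, Car2 and Car4, stood at -0.052 ± 0.049, -0.041 ± 0.045 and 0.0043 ± 0.039 in mean ratio. Of these 3, 0 passed, beside 3.92% of all features.

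Urate oxidase (Uox), which degrades uric acid in peroxisomes of rat hepatocytes, stood at 0.24 and 0.31 on arrays 1 and 3 and at -0.81 and -0.77 on arrays 2 and 4. Its mean ratio was -0.26 ± 0.040 and its dye contrast 0.53 ± 0.040. As in Fcgrt and Car3, the arrays with ANIT in Cy3 lay farther from 0 than those with ANIT in Cy5.

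Alanine-glyoxylate aminotransferase (Agxt), which detoxifies glyoxylate and in the rat lies in peroxisomes and mitochondria, stood at 0.51 and 0.41 on arrays 1 and 3 and at -0.56 and -0.59 on arrays 2 and 4. The orientations were nearly mirror images, so its mean ratio was near 0, at -0.058 ± 0.041, with a dye contrast of 0.52 ± 0.041. Its 2 spots had mean ratios of -0.066 and -0.050.

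Thiosulfate sulfurtransferase (Tst), or rhodanese, the mitochondrial enzyme that passes sulfur to cyanide, stood at 0.67 and 0.77 on arrays 1 and 3 and at -0.18 and -0.43 on arrays 2 and 4. It had the widest gap between arrays of 1 orientation among the 9 genes, 0.25 between arrays 2 and 4. Its mean ratio was 0.21 ± 0.051, on the side of Ttr and Ang, and its dye contrast 0.51 ± 0.051.

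In mean ratio the 9 genes lay between -0.36 and 0.23, with 3 positive and 6 negative and a median of -0.13, against a median of 0.0042 over all 1174 features. Their order from the top was Ttr, Ang, Tst, Agxt, Vtn, Igf1, Fcgrt, Uox and Car3. Of the 8 steps between neighbours in this order, 1 exceeded 2 SE of the difference, that from Tst to Agxt (0.27 ± 0.065), and the other steps did not. The SE of a difference was formed from the SEs of both genes as if these were independent, although both genes lie on the same 4 arrays. With the dye term in limma, 5 of the 9 passed the adjusted p of 0.05, Ttr and Ang on the positive and Fcgrt, Car3 and Uox on the negative side, beside 3.92% of all features (1.62% positive, 2.3% negative). Nothing is read from this count, because the genes were chosen with it known. Among all features 46 passed, 19 positive and 27 negative. That split became 29 and 27 with equal spread on each array, and 4 and 1057 with values as deposited. Leaving out array 2 gave 86 features in all and leaving out array 3 gave 28.

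Leaving out 1 array ended some of these calls without turning a sign. Without array 3, Ttr (0.24), Ang (0.20) and Fcgrt (-0.23) no longer passed, and without array 1 Ttr (0.21) did not. With print blocks centred on their own medians, Ttr stood at 0.19 and missed the threshold. Tst missed the threshold in the fit given above (limma, adjusted p = 0.068) and passed without array 4, at 0.27. With all 4 arrays it also passed with equal spread on each array (0.23, limma, adjusted p = 0.0276), with robust eBayes (0.21, adjusted p = 0.0467) and with every spot on its own (0.21, adjusted p = 0.0433). Car3 and Uox passed in each of 10 settings that kept the dye effect and 1 value per gene, Fcgrt in 9, Ang in 8, Ttr in 6 and Tst in 3. Igf1, Vtn and Agxt passed in 1 of the 10, with values as deposited. In that setting 1057 of the 1174 features passed on the negative side and 4 on the positive. These tallies therefore cannot be compared between genes of opposite sign. Centring sets where 0 lies. Uncentred values are lower by 0.22 in mean ratio for every gene, and there Ttr and Ang stood at 0.011 each and Tst at -0.0084, while the other 6 genes lay between -0.58 and -0.27.

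**Figure D2:**
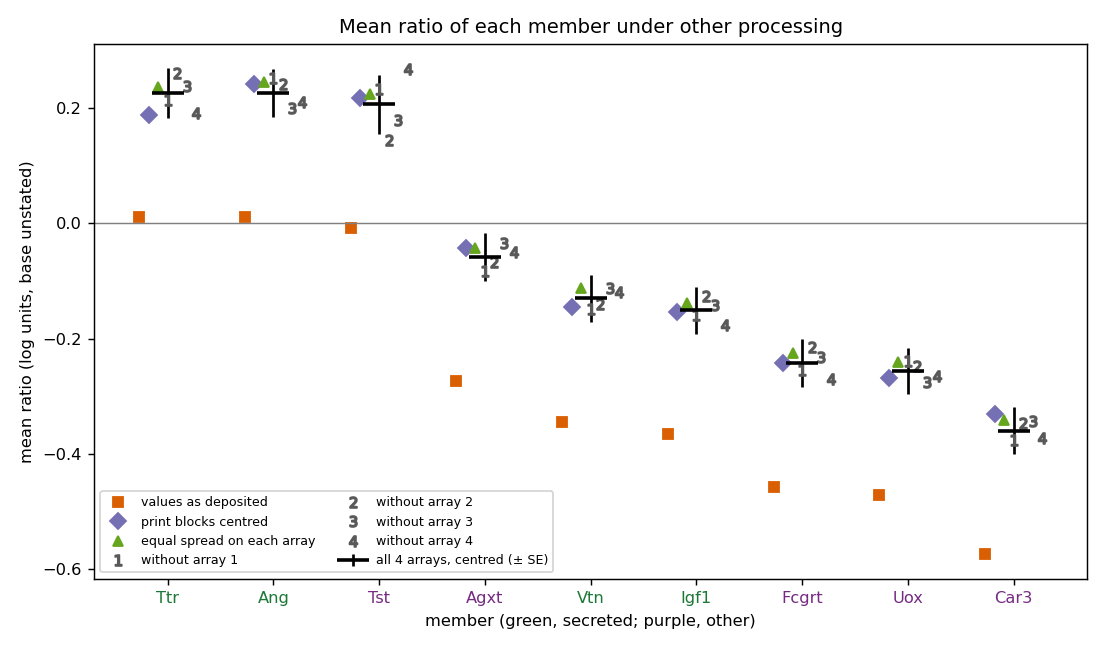
Mean ratio (log units, base unstated) of each gene with all 4 centred arrays (black bar with SE, n = 4), with values as deposited (orange squares), print blocks centred (purple diamonds), equal spread on each array (green triangles) and 1 array left out (digits 1 to 4 name it). Values as deposited lie below the centred ones for every gene, with Ttr and Ang at 0.011 and Tst at -0.0084, and no gene crosses 0 when 1 array is left out.

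In dye contrast the 9 genes lay closer together than in mean ratio, with an SD over genes of 0.091 against 0.23. All 9 were positive on both arrays with ANIT in Cy5 and negative on both with ANIT in Cy3, a pattern that 39.3% of all features showed. Their dye contrasts ran from 0.37 in Ttr to 0.68 in Ang, with a median of 0.53, against -0.041 over all features. In limma 9 of 9 passed on the positive side, with adjusted p from 1.22e-06 to 2.78e-05, beside 40.6% of all features that passed on that side and 45.8% on the other. Nothing is read from this count either, because the genes were chosen with earlier results of these data known. Of the 8 steps between neighbours in the order of dye contrast, 0 exceeded 2 SE, formed in the same way. The step from Igf1 to Ttr came nearest, at 1.99 SE. Under the reading with 1 dye as numerator throughout, all 9 genes would thus lie on 1 side of the median gene spot in the comparison of the treatments. This side rests on the centring too. Uncentred, dye contrasts are lower by 0.52, and those of Ttr, Igf1, Agxt and Tst became negative, at -0.15, -0.033, -0.0075 and -0.013.

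The agreement of spots was measured in the 4 genes with 2 spots. Their spots differed in dye contrast by 0.11 in Ang, 0.18 in Vtn, 0.048 in Car3 and 0.034 in Agxt. Over the other 257 genes with 2 spots the median gap was 0.26, and the lower quartile 0.096. In mean ratio the gaps of the 4 genes, 0.10, 0.045, 0.0085 and 0.016 in the same order, stood beside a median of 0.068. The SE of a gene leaves this difference between spots out, and Ttr, Igf1, Fcgrt, Uox and Tst had 1 spot each.

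**Figure D3:**
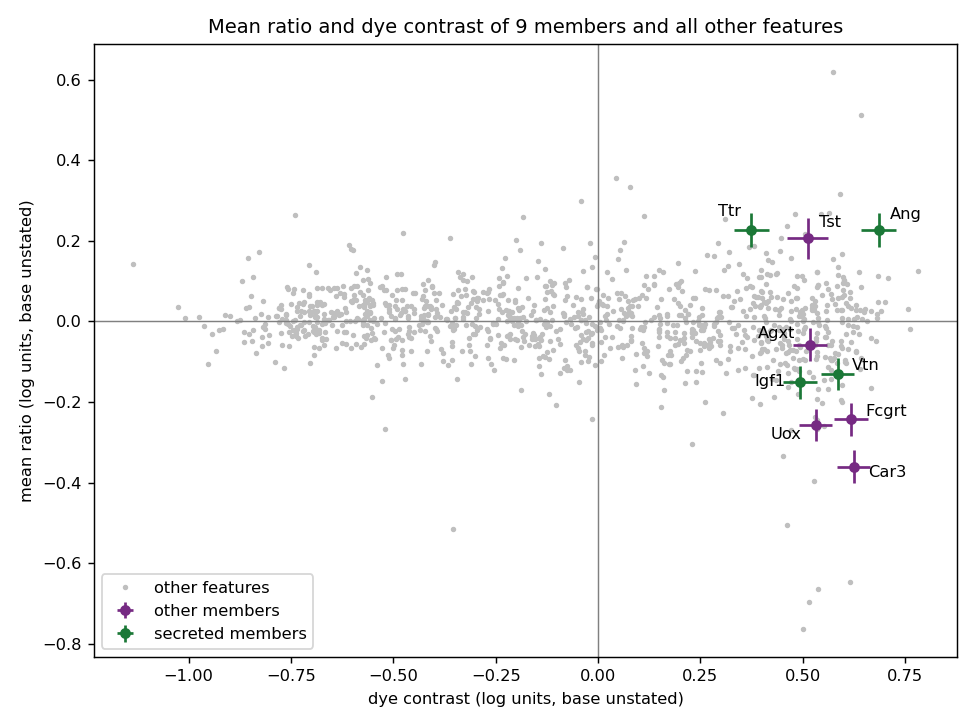
Mean ratio against dye contrast (both in log units, base unstated) of all 1174 features, with the 9 genes in colour (green, secreted; purple, other) and their SE (n = 4 arrays). The 9 genes lie at dye contrasts of 0.37 to 0.68, with mean ratios spread from -0.36 in Car3 to 0.23 in Ttr and Ang.

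Another 287 features had dye contrasts in the range of the 9 genes. Their mean ratios had a median of -0.011, an SD of 0.14 and a span between the 5th and 95th percentiles from -0.20 to 0.15. Ttr, Ang and Tst lay above this span, Fcgrt, Uox and Car3 below it, and Agxt, Vtn and Igf1 inside it. The genes were chosen with their mean ratios known, so these places are a description and support nothing. Of these 287 features, which are 24.4% of all, 10 passed with a positive mean ratio and 20 with a negative one. Over all 1174 features 19 and 27 passed, so calls on both sides were more frequent in this range of dye contrast. With the trend of the mean ratio along the dye contrast removed, Car3 stood at -0.36, Ttr at 0.24 and Agxt at -0.050, each within its SE of the value with the trend kept.

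The secreted products were then set against the other 5 genes, to see whether the place of the product goes with the ratio. The class means of the secreted genes were 0.58, -0.52, 0.57 and -0.46 on arrays 1 to 4, and those of the others 0.42, -0.69, 0.42 and -0.71. The secreted mean was higher on 4 of 4 arrays, by 0.16, 0.17, 0.15 and 0.25. Array 4 showed the largest gap. In mean ratio the difference was 0.19 ± 0.020 (ordinary SE from the arrays, n = 4, not the limma SE of the genes), with class means of 0.043 and -0.14. In dye contrast it was -0.026 ± 0.020, with class means of 0.53 and 0.56. The SD left between arrays after the dye term was 0.041. The difference in dye contrast was smaller in size than this spread of single arrays, though not smaller than its own SE. Genes are not replicates and were picked with their values known, so no test was made over them.

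The classes overlapped. In mean ratio the secreted genes ran from -0.15 to 0.23 and the others from -0.36 to 0.21, and in 16 of 20 pairs the secreted gene was the higher. In the remaining pairs Igf1 or Vtn stood below Agxt or Tst, and Ttr and Ang exceeded Tst by less than their SE. In dye contrast the secreted gene was the higher in 8 of 20 pairs. The size of the difference rested on single genes. Without Ttr or without Ang the mean ratio differed by 0.12, without Car3 by 0.13 and without Tst by 0.27, and without Igf1 or Vtn by 0.25 and 0.24. Without Fcgrt, the membrane receptor, it was 0.16. It stayed positive in all of these and did not depend on the centring of arrays, which moves both classes alike.

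**Figure D4:**
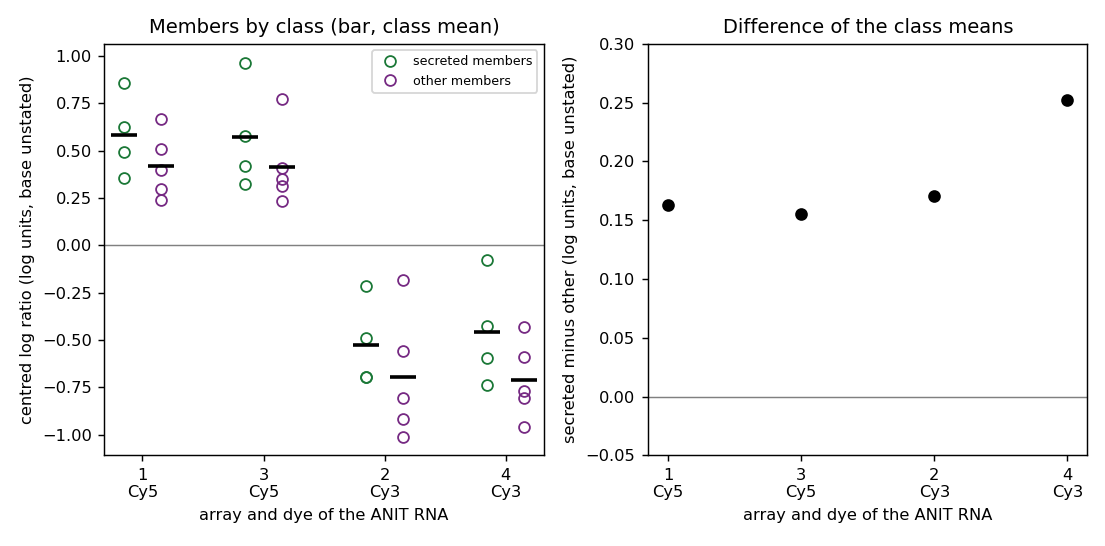
Left, centred log ratio (log units, base unstated) of the 4 secreted (green) and 5 other genes (purple) on each array, with bars for class means; right, the difference of the class means on each array. The classes overlap on every array, and the difference is 0.16, 0.15, 0.17 and 0.25 on arrays 1, 3, 2 and 4.

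Genes that share a pathway with the 9 were counted from lists of related genes. Over all features 1.62% passed in mean ratio on the positive side and 2.3% on the negative, shares that apply to each list here and below. Among 22 measured hepatocyte secreted proteins, 3 had a positive and 1 a negative mean ratio past the threshold, with a list median of 0.080. Of the 22, 4 were among the 9 genes, chosen with their values known. Besides Ttr and Ang, Tf, the iron carrier transferrin, passed at 0.19 ± 0.040 (limma, adjusted p = 0.0368). Cp, the copper carrier ceruloplasmin, passed at -0.27 ± 0.043 (limma, adjusted p = 0.0096). With values as deposited Tf turned to -0.028. In dye contrast 19 of the 22 were positive and 2 negative past the threshold, beside 40.6% and 45.8% of all features. These sides rest on the centring too. Among 4 measured plasma proteins known to fall in inflammation, Ttr and Tf were positive, whereas Apoa1, the main protein of high-density lipoprotein, and Igf1 stood at -0.095 and -0.15 without passing.

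Among 8 measured hepatocyte metabolic enzymes, Uox and Car3 passed on the negative side and 0 on the positive, with a median of -0.038. The 4 that are not among the 9 genes were Hao2, a peroxisomal hydroxyacid oxidase, at -0.12 ± 0.043, Pck1, which feeds glucose synthesis, at 0.12 ± 0.053, Fah, the last enzyme of tyrosine breakdown, at -0.018 ± 0.040, and Khk, the fructose kinase, at 0.16 ± 0.16. None of these 4 passed. Of 7 peroxisomal proteins Uox alone passed. The others ran from -0.12 in Hao2 to 0.088 in Abcd3, a transporter of the peroxisomal membrane.

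In the growth hormone and IGF axis 14 genes were measured and 0 passed in mean ratio. Igf1 was the largest by size at -0.15. Its binding partners in plasma, Igfals, which encodes the acid-labile subunit, and Igfbp3, stood at 0.086 ± 0.044 and -0.073 ± 0.045, and the growth hormone receptor Ghr at 0.023 ± 0.046. Of 6 genes of the vitronectin receptors and the plasminogen system 0 passed, with Vtn the largest at -0.13 and the integrin subunit Itgb5 next at -0.060. Of 3 genes of purine breakdown and salvage Uox passed, with the phosphorylase Pnp at -0.12 ± 0.053. Of the ribonucleases and their inhibitor, Ang passed and Rnh1, the inhibitor that binds angiogenin, stood at 0.042 ± 0.041 and at -0.51 in dye contrast. In the list of sex-patterned liver genes Car3 passed, while Cyp2c12, a P450 of female rat liver, stood at 0.056 ± 0.040. In sulfur metabolism Gclm (0.012) and in glycine and serine metabolism Phgdh (0.023) were the other genes measured, and neither they nor Tst and Agxt passed.

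The genes nearest to each of the 9 over the 4 arrays were found by Euclidean distance among the 958 named genes. The closest pair was Igf1 and Cyp2f4, at a distance of 0.050 log units, followed by Uox and Sqstm1 at 0.051, Agxt and Ptprn at 0.063, and Vtn and Sod2 at 0.065. Ttr lay nearest to Tf (0.10) and then Cyp3a23-3a1 (0.18). Fcgrt lay nearest to Cks1b (0.13), Tst to Mfsd10 (0.17), Car3 to Dtymk (0.21) and Ang to Pgam1 (0.24). Second in distance were Rheb for Igf1, Cp for Uox, Itih3 for Agxt, Serping1 for Vtn, Bcl7b for Fcgrt, Scd for Tst, Fcgrt for Car3 and Sod1 for Ang. Among the 9, Igf1 and Uox thus lay closest to their nearest genes, and Car3 and Ang lay farthest from theirs. Within the 9, the nearest of 36 pairs were Vtn with Agxt and Fcgrt with Uox, at 0.20 each. As far as the labels say, the 4 arrays hold the same pools, 2 arrays in each dye orientation, so these distances describe the hybridisations.

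Other liver cell types were represented by few markers. In mean ratio 0 of 3 bile duct, 0 of 2 myeloid and lymphoid, 0 of 3 endothelial, 0 of 3 stellate and fibroblast and 0 of 1 blood markers passed, with list medians between -0.077 and 0.0098. Their median dye contrasts were -0.75, -0.081, -0.21, -0.27 and -0.53 in this order, each below the lowest value of the 9 genes, but they rest on 1 to 3 markers each and single markers went the other way. Vim, which encodes the filament protein vimentin and was listed for stellate cells and fibroblasts, stood at 0.46, within the range of the 9 genes, and Fcgr2b, an Fc receptor of immune cells, at 0.25. Of 7 hepatocyte markers 3 passed, all positive, beside 1.62% of all features on that side. They were Tf, the P450 Cyp1a2 and Ttr, which is 1 of the 9 genes and was chosen with its value known. With values as deposited they stood at -0.028, 0.40 and 0.011, with a list median of -0.078. The centred medians were 0.14 in mean ratio and 0.37 in dye contrast, the latter being the value of Ttr. Among the 7 markers Serpina1, a protease inhibitor of plasma, stood at -0.31 in dye contrast, so a positive dye contrast was not shared by all hepatocyte genes. Cyp2e1, a P450 of hepatocytes, stood near 0, at 0.022, without passing (limma, adjusted p = 0.61). The part of other cell types in the members' values was not tested. The housekeeping genes stood at 0.061 ± 0.050 (Actb) and -0.011 ± 0.039 (Hprt1) in mean ratio and at 0.38 and 0.046 in dye contrast.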

How the data were processed

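The authors deposited 1 log ratio per spot and array in the series' value table. Its logarithm base, direction, background correction and normalization, like the scanner, were not stated in any source used. The values carry no brightness, so how far a spot lay above background cannot be said. The table had 1936 spots in 16 blocks and 0 missing values. The 18 positions per block that were annotated in no block, 288 spots, were taken as control spots and left out. Symbols came from the platform annotation, and all 13 member spots matched the RefSeq gene table by Entrez identifier.

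From each array the median over its gene spots was subtracted, and spots of 1 symbol were averaged. In limma 3.58.1 (R 4.3.3), lmFit and eBayes were fitted with an intercept (mean ratio) and a dye term (dye contrast) on all 1174 features, with 2 residual degrees of freedom, two-sided tests, Benjamini-Hochberg adjustment and a threshold of 0.05. The rule for named genes took the 9 members, the 2 named genes nearest to each, the called or largest genes of each list, and Actb and Hprt1. Other list genes were named after their values were seen. Members and lists were chosen with earlier results of these data known. Alternatives changed the centring, scale, dye term, spots, eBayes, arrays and sign. Removal of a lowess trend (span 0.4) was chosen after seeing the data. Figures were drawn with matplotlib 3.10.9.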

Additional observations from a re-analysis of the deposited data

How the results depend on the processing

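The count of features past the threshold in mean ratio, 46, became 1061 with values as deposited, 87 of 1648 with every spot on its own, and between 28 (without array 3) and 86 (without array 2) when 1 array was left out. Without a dye effect in the limma fit it was 0, with 5 at an unadjusted p under 0.05, and no member passed there. With the arrays of ANIT in Cy3 turned in sign, mean ratio and dye contrast change places: 1015 features passed in the first and 46 in the second. Igf1 (0.49), Vtn (0.58), Fcgrt (0.62), Car3 (0.62), Uox (0.53) and Agxt (0.52) then turned positive in mean ratio, and in dye contrast they turned to -0.15, -0.13, -0.24, -0.36, -0.26 and -0.058. With values as deposited, Tst turned to -0.0084 in mean ratio, and the dye contrasts of Ttr (-0.15), Igf1 (-0.033), Agxt (-0.0075) and Tst (-0.013) turned negative. For the secreted minus the other genes, the mean ratio of 0.19 moved to 0.12 without Ttr, 0.25 without Igf1, 0.12 without Ang, 0.24 without Vtn, 0.13 without Car3 and 0.27 without Tst. The difference in dye contrast turned to 0.027 without Ttr and moved to -0.077 without Ang. Leaving out 1 array gave 0.16 to 0.21 in mean ratio and -0.047 to -0.0061 in dye contrast. The cause of these moves was not tested beyond what each setting changes by construction. Each ratio already pairs both pools within 1 array, and no further pairing of arrays was fitted. With 4 arrays and no brightness, weak signals cannot be told from background.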
